A study of Mus musculus with 16 samples.

Results

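The immediate early genes of antigen engagement are a set of 10 genes, Egr1, Egr2, Egr3, Nr4a1, Fos, Fosb, Jun, Junb, Ier2 and Dusp1, chosen by name in the gene name column of the scanner files. The rule itself uses no measured value, although the genes were proposed with earlier results of these data known. They were read by 13 probes, printed as 40 spots on each array, among 41174 probes in all, which stand for 27670 genes and unnamed units. All 10 genes passed the filter on dim signals and were tested together with the other genes, 20467 genes and unnamed units in total.

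Immediate early genes are switched on within minutes of a signal at the cell surface, from factors already present in the cell, with no need for new protein. In a B cell, binding of antigen by the receptor activates the MAP kinase and calcium pathways, and these act on SRF, its ETS partners and CREB at the promoters of the set. EGR proteins are zinc finger transcription factors, Nr4a1 (Nur77) is an orphan nuclear receptor, and FOS and JUN proteins pair to form the factor AP-1. Nr4a1 and the Egr genes are widely used as markers of antigen receptor signalling in mouse lymphocytes. Several of the set also respond to stress and to the handling of cells.

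RNA of follicular B cells, which are the mature recirculating B cells of spleen and lymph node follicles, was taken from C.B17 mice and read on Agilent arrays with 2 dyes. The 16 arrays held 8 biological samples, each hybridised once in each dye orientation against 1 reference RNA pooled from 6 cell lines, which the labels name as P388d, DN3, EL4, J558, RS2 and R1. Auto.Neg (n = 2) was ATAμκTg, a VH3609μ/Vk21-5κ transgenic receptor that binds Thy-1 of thymocytes, on a Thy-1 knockout background, so that these mice lacked the antigen. Auto.Pos (n = 2) was AGcAμκTg, a VH3609μ/Vk19-17κ transgenic receptor against intestinal goblet cells, although a further label gives its light chain as Vkappa17-17kappa. WT (n = 2) was wild type. Non-edited (n = 1) and Edited (n = 1) cells came from VH3609t +/- x Vk21-5Tg +/- mice on the Thy-1 knockout background. In B cell biology, editing means that a new light or heavy chain rearrangement replaces the first. Auto.Neg, Non-edited and Edited thus share the Thy-1 knockout, which Auto.Pos and WT are not labelled to carry. The labels give no age, sort gate or transgene promoter, and leave unsaid whether a group's samples came from separate mice, so each p-value rests on the variation among these samples alone, and that variation may be technical.

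By the scanner's mark, 62.0% to 81.9% of probes on an array were well above background in the sample channel. Median signals were 101.5 to 735 (Cy3) and 92.2 to 1039 (Cy5). Both maxima came from the array of WT sample 2 with the sample in Cy3, and the other arrays reached at most 226 and 287. The number of samples limits the precision. All 8 listed B cell markers and 4 of 5 follicular markers passed the filter, with mean log2 ratios of 3.95 to 4.95 and 6.17 to 6.85 over the samples. T cell markers averaged -2.68 to -1.98. Thy1 was read by 2 probes, of which 1 gave -4.19 to -3.97 in the 4 knockout samples and -4.54 to -3.73 in the 4 others, and the second gave -1.43 to 0.46 and -3.77 to -2.93. The deleted part of the gene is not given in the sources used here, so neither probe checks the genotype. There were 7 slides and 4 scan days. Auto.Neg sample 2 and Auto.Pos sample 1 stood apart from the rest as the only samples of slide 2, scan day 2 and scanner 1. Over all genes they differed by a median of 0.12 (log2), against 0.37 between the Auto.Neg samples, 0.37 between the Auto.Pos samples and 0.30 between the WT samples. Scan day 3 held Auto.Pos sample 2 with WT sample 2, and Auto.Neg sample 1, Non-edited and Edited shared scan day 4. Each result below that rests on slide 2 or on scan day 3 is therefore also given within it.

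RefSeq promoter windows (GRCm38.p6) were at hand for 7 of the 10 genes, as 11 windows, and not for Egr1, Egr3 and Ier2. The 250 bases before the start are printed for Egr2, which among the genes with a window differed most between Edited and Non-edited cells, for Nr4a1, which was higher in the same sample, and for Fos, Junb and Dusp1, whose group differences are described below. Capitals mark the CArG box, which SRF binds, the cyclic AMP response element (CRE, TGACGTCA), which CREB binds, its core TGACG, which also lies inside the CRE, and the TATAAA box. Both strands were searched, so that CGTCA is that core read on the other strand.
Egr2, chr10:67537619-67537868, plus strand: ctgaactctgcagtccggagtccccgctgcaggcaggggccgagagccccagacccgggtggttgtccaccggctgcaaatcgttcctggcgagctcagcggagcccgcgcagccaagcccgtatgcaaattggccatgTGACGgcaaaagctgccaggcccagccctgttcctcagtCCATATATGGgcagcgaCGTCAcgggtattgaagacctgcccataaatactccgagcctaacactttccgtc
Nr4a1, chr15:101266596-101266845, plus strand: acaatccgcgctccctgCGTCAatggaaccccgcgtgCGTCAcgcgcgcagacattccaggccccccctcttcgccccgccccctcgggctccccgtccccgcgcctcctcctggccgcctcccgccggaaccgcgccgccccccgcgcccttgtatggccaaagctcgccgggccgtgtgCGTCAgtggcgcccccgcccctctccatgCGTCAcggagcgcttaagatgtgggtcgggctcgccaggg
Fos, chr12:85473640-85473889, plus strand: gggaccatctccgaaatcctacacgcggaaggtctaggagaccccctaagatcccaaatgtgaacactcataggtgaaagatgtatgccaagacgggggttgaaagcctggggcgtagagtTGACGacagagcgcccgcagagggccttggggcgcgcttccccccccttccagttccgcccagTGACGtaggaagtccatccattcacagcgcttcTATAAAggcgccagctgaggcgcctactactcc
Junb, chr8:84978749-84978998, minus strand: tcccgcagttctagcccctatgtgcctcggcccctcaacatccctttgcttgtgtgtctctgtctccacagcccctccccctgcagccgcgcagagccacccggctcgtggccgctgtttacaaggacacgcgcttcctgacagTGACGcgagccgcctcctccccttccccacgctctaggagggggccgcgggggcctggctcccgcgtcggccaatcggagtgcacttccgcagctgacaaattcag
Dusp1, chr17:26508473-26508722, minus strand: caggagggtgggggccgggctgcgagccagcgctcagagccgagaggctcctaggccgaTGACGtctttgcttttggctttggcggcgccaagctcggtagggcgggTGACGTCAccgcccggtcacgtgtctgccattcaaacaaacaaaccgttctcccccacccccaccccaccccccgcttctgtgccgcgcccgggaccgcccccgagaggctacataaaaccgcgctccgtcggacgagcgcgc

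A CArG box stood in 4 of the 5 Egr2 windows, some of which overlap and hold the same box, and in no window of the other genes. It lay 72 bases before the start in the window printed, which was taken from those with the most matches. Of all 32851 windows of this length, 1.47% held a CArG box. The CRE stood in the Dusp1 window, 143 bases before the start, and in 1.55% of all windows. The core TGACG stood in 6 of the 7 genes, all but Jun, with 4 copies in the Nr4a1 window, against 17.8% of all windows. TATAAA stood in the Fos window and in 12.4% of all. The AP-1 site TGACTCA (4.46% of all windows), the EGR site GCGTGGGCG (0.536%) and the NBRE of NR4A proteins, AAAGGTCA (1.34%), stood in 0 of the 11. These are matches of letters in 1 short window per start and no evidence of binding.

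All ratios below are log2 of sample over reference, and a gene's ratio depends on its level in the cell line pool, so ratios do not rank one gene's level against another's. Where a gene had several probes the brightest was used. All 10 used probes were well above background in the sample channel on all 16 arrays, and 0 were saturated. Of the 10 genes, 5 (Egr2, Egr3, Fosb, Junb and Ier2) were above the reference in all 8 samples. In bulk samples, fewer cells that carry a transcript and less transcript per cell cannot be told apart.

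Egr1, the founding EGR factor, gave 1.11 and 1.47 for Auto.Neg, 1.04 and 0.49 for Auto.Pos, 1.24 and 0.83 for WT, -0.24 for Non-edited and 0.51 for Edited. Both Auto.Neg samples lay above both Auto.Pos samples, while WT overlapped both, and Non-edited was the lowest of the 8. The mean was 1.29 ± 0.25 (SD, n = 2) in Auto.Neg, 1.04 ± 0.29 in WT and 0.76 ± 0.39 in Auto.Pos, followed by Edited and Non-edited. Of the gaps between neighbours in that order, only the one between Edited and Non-edited (0.76) exceeded the pooled SD of 0.32 among samples of a group.

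Egr2, an EGR factor linked to tolerance and anergy in lymphocytes, gave 4.02 and 4.50 for Auto.Neg, 4.04 and 2.94 for Auto.Pos, 4.07 and 4.37 for WT, 2.77 for Non-edited and 4.31 for Edited (probe at chr10:67145376-67145435, mm7). It was thus high in 6 samples and low in Auto.Pos sample 2 and Non-edited. Its 10 spots per array had a median SD of 0.088, against an SD of 0.78 between the Auto.Pos samples. Spots of 1 array share a hybridisation. The dye orientations of a sample differed more, by a median of 0.41 and up to 1.07 in WT sample 2, always higher in Cy5. The means were 4.26 ± 0.34 (SD, n = 2) in Auto.Neg, 4.22 ± 0.21 in WT and 3.49 ± 0.78 in Auto.Pos. Edited, Auto.Neg and WT were separated by gaps of only 0.05, and the gaps from WT to Auto.Pos (0.72) and from Auto.Pos to Non-edited (0.72) exceeded the pooled SD of 0.51.

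Egr3, which acts beside Egr2, gave 4.62 and 4.71 for Auto.Neg, 4.24 and 5.00 for Auto.Pos, 4.66 and 4.88 for WT, 3.35 for Non-edited and 5.03 for Edited (probe at chr14:64726656-64726715). The 3 replicated groups overlapped, and 7 samples lay between 4.24 and 5.03, with Non-edited below them. The reference channel of this probe was well above background on only 5 of 16 arrays, and the dye orientations of a sample differed by up to 2.21, in Auto.Pos sample 1, so its single ratios are less certain than those of the other genes. A dimmer second probe, 3092 bases away (chr14:64723504-64723563), was well above background on 12 arrays and read 0.06 to 0.30 over the samples, lowest again in Non-edited.

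Nr4a1 gave 0.80 and 1.52 for Auto.Neg, 1.45 and 0.59 for Auto.Pos, 1.02 and 1.00 for WT, -0.26 for Non-edited and 0.53 for Edited (probe at chr15:101260484-101260543). The samples of slide 2, Auto.Neg sample 2 and Auto.Pos sample 1, were the highest, and the other sample of each of these groups lay below both WT samples. The group means were close, at 1.16 ± 0.51 (SD, n = 2), 1.02 ± 0.61 and 1.01 ± 0.01, and Edited and Non-edited came below them, each after a gap (0.48 and 0.79) larger than the pooled SD of 0.46.

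Fos, the partner of JUN proteins in the classical AP-1 dimer, gave 1.01 and 0.25 for Auto.Neg, 0.51 and 0.71 for Auto.Pos, 0.26 and -0.31 for WT, -0.38 for Non-edited and -0.45 for Edited. Both Auto.Pos samples lay above both WT samples, Auto.Neg overlapped both groups, and the lone samples were the lowest. Its 10 spots (chr12:83478431-83478490) had a median SD of 0.070. The dye orientations of a sample differed by a median of 0.57 and up to 1.02 in Auto.Pos sample 1, always lower in Cy5. The gap from Auto.Pos (0.61 ± 0.14, SD, n = 2) to WT (-0.02 ± 0.41), 0.63, was the only one in the order of the 5 groups above the pooled SD of 0.39.

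Fosb, a FOS family member that pairs with JUN proteins in the same way, gave 0.51 and 1.09 for Auto.Neg, 1.05 and 0.53 for Auto.Pos, 0.66 for either WT sample, 0.48 for Non-edited and 0.17 for Edited (chr7:16985502-16985561). The WT samples lay inside the range of both transgenic groups, and again the samples of slide 2 were the highest. No gap between neighbouring groups exceeded the pooled SD of 0.32.

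Jun, the second classical AP-1 subunit, gave -0.56 and 0.06 for Auto.Neg, -0.19 and -0.80 for Auto.Pos, -0.90 and -0.06 for WT, -1.18 for Non-edited and -1.39 for Edited (chr4:94441779-94441838, 10 spots with a median SD of 0.063). Its dye orientations differed by a median of 0.35 and up to 0.85 in Auto.Pos sample 1, always lower in Cy5. Jun was below the reference in 7 of 8 samples, and the replicated groups overlapped completely. The gap from Auto.Pos (-0.49 ± 0.43, SD, n = 2) to Non-edited, 0.68, was the only one above the pooled SD of 0.49.

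Junb, which can oppose Jun in AP-1 dimers, gave 2.72 and 2.90 for Auto.Neg, 2.71 and 1.92 for Auto.Pos, 2.58 and 1.14 for WT, 1.99 for Non-edited and 1.80 for Edited (chr8:83563059-83563118). Both Auto.Neg samples lay above all 6 others, although Auto.Neg sample 1 exceeded Auto.Pos sample 1 only barely and lay below it on the other probe, and WT sample 2 lay below all others. A second probe that overlaps the first by 22 bases read 2.76 and 3.13, 2.79 and 1.89, 2.56 and 1.15, 1.75 and 1.59 in the same order. Both probes thus placed WT sample 2 lowest, and the WT samples differed by 1.44 on the first. No neighbouring groups differed by more than the pooled SD of 0.67.

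Ier2, a small nuclear protein induced with the AP-1 genes, gave 1.53 and 0.58 for Auto.Neg, 0.58 and 1.07 for Auto.Pos, 1.47 for either WT sample, 0.80 for Non-edited and 0.71 for Edited on its brighter probe (chr8:83243584-83243618). Here the samples of slide 2 were the lowest, the reverse of Nr4a1 and Fosb. The other probe, 139 bases away (chr8:83243758-83243816), read -0.19 and 0.99, 1.02 and 0.09, 1.18 and 0.00, -0.20 and -0.31 in the same order, with the samples of slide 2 and WT sample 1 high. Both probes were well above background on all 16 arrays, and the values of Ier2 are uncertain because they disagree. No neighbouring groups differed by more than the pooled SD of 0.44 on the brighter probe.

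Dusp1, a phosphatase that switches off MAP kinases, gave 0.38 and 1.13 for Auto.Neg, 1.06 and 0.53 for Auto.Pos, 0.36 and -0.34 for WT, -0.30 for Non-edited and -0.01 for Edited (chr17:24690398-24690455). All 4 samples of Auto.Neg and Auto.Pos lay above both WT samples, although Auto.Neg sample 1 exceeded WT sample 1 only barely. The means were 0.80 ± 0.38 (SD, n = 2) in Auto.Pos, 0.76 ± 0.53 in Auto.Neg and 0.01 ± 0.50 in WT. The gap between Auto.Neg and WT, 0.75, was the only one above the pooled SD of 0.47.

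**Figure D1:**
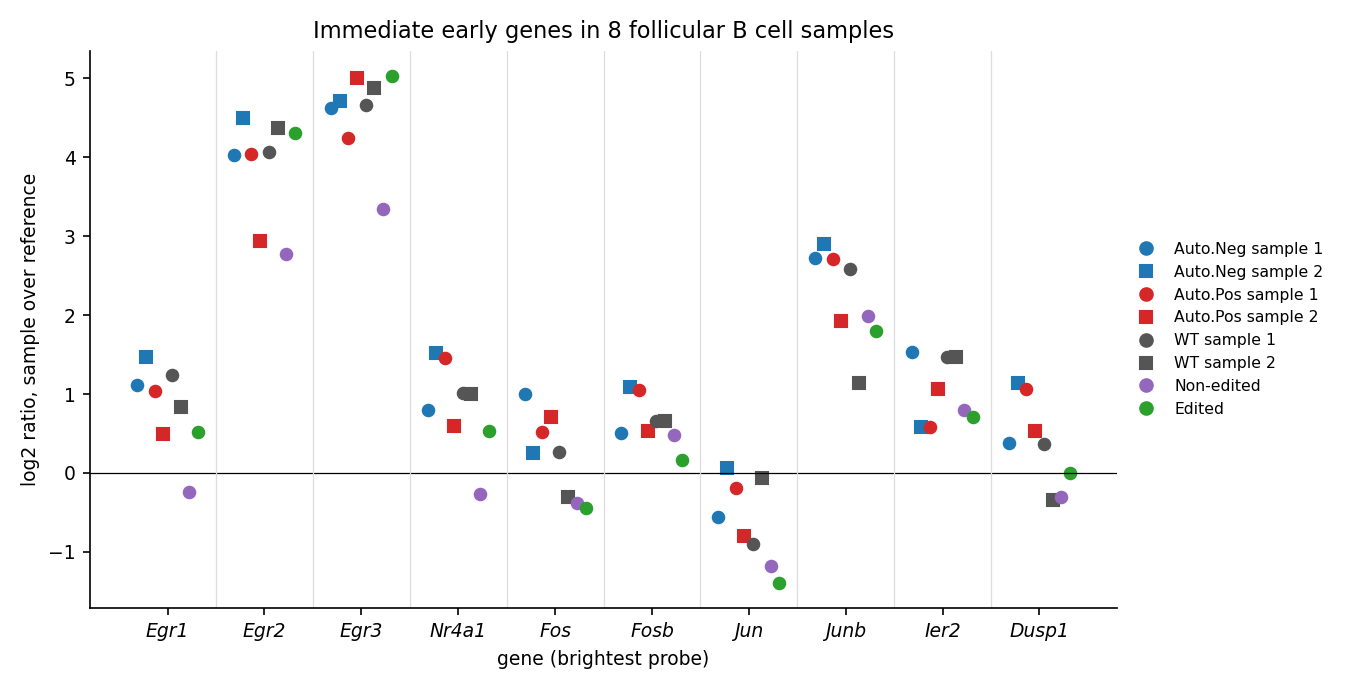
Log2 ratio of sample over reference (y axis) for the brightest probe of each of the 10 genes (x axis), with 1 point per biological sample, averaged over both dye orientations. Colours are groups, circles sample 1 or a lone sample, and squares sample 2. The purple Non-edited point lies lowest for Egr1, Egr2, Egr3 and Nr4a1, and samples of 1 colour lie up to 1.44 apart (Junb in WT).

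**Figure D2:**
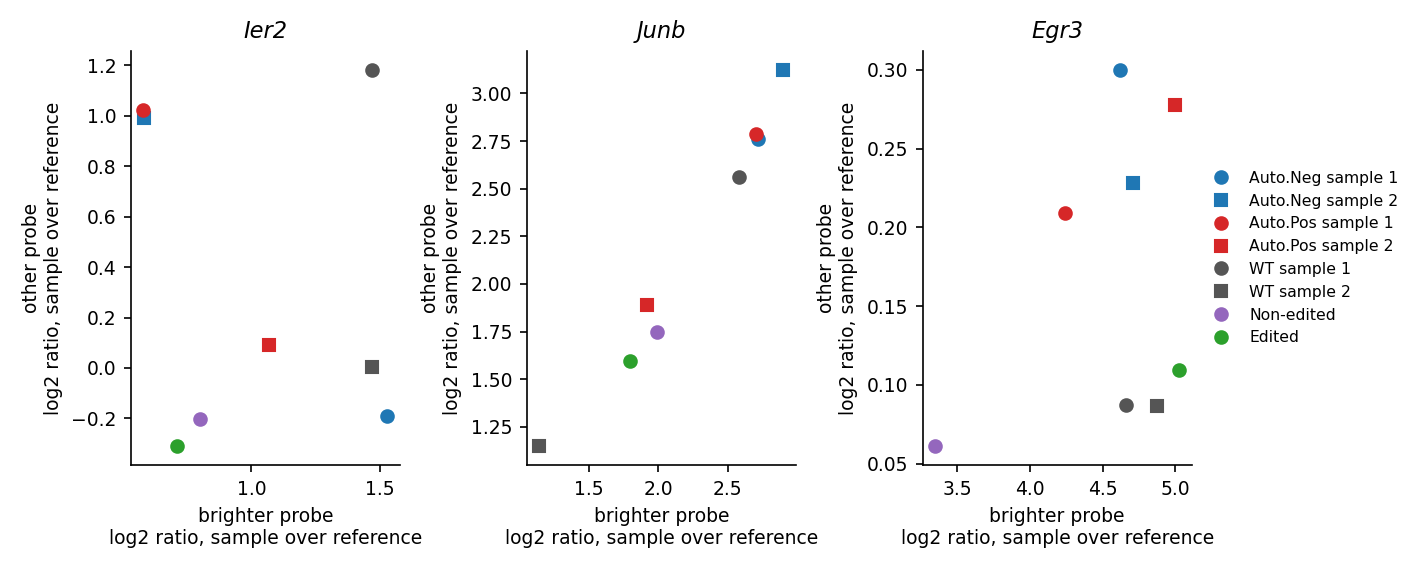
Log2 ratio of sample over reference of the brighter probe (x axis) against the other probe (y axis) of Ier2, Junb and Egr3, with 1 point per biological sample and with axes that do not share a scale. The Junb probes both place WT sample 2 lowest and Auto.Neg sample 2 highest, whereas the Ier2 probes place the samples of slide 2 (Auto.Neg sample 2 and Auto.Pos sample 1) at the low end of one and near the high end of the other.

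The question of whether samples of 1 group differed more than the groups was addressed gene by gene, as a description. For 9 of the 10 genes the largest difference between samples of 1 group exceeded the largest difference between means of Auto.Neg, Auto.Pos and WT, and the same held for 81.9% of 20461 genes with a value in all 6 samples. Dusp1 was the exception, at 0.75 within groups and 0.79 between means. The count was 6 with the scanner's own log ratio (80.2% of all genes) and 7 with median centring (80.5%), with Egr1 outside it under either. It was also 7 with the series table (65.4%), whose columns partly match arrays of other groups. The excess was smallest for Egr1 (0.55 against 0.53) and largest for Nr4a1 (0.86 against 0.15) and Egr3 (0.76 against 0.15). The median pooled SD of the set was 0.45, against 0.33 over all genes, and by gene it lay between percentile 48.3 (Egr1) and 86 (Junb) of all genes. In limma's test for any difference among the 3 groups, 0 of the 10 genes were called at an adjusted p under 0.05, as were 0 of 20467 genes (0%). At an unadjusted p under 0.05 the test held 0 of the set and 819 genes in all (4%), and the unadjusted p of the set ran from 0.182 (Dusp1) to 0.918 (Nr4a1).

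**Figure D3:**
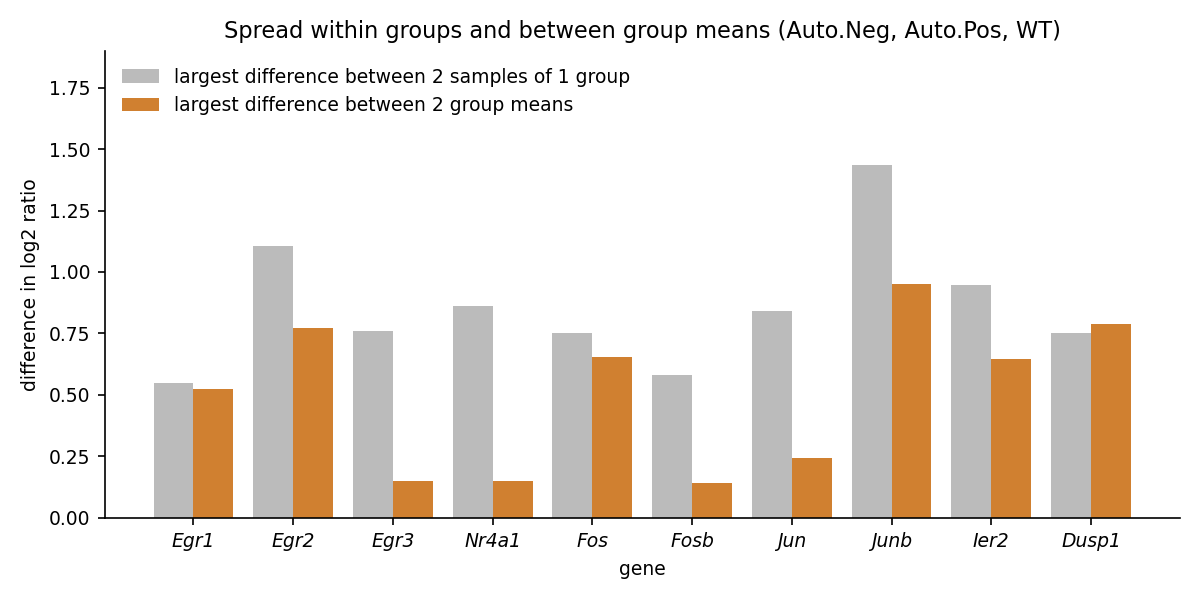
Largest difference between 2 samples of 1 group (grey) and largest difference between 2 group means (orange) among Auto.Neg, Auto.Pos and WT, for each of the 10 genes (x axis), in log2 ratio (y axis, from 0). The grey bar is the taller for all genes but Dusp1.

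Auto.Pos against Auto.Neg compares a receptor against intestinal goblet cells with one whose antigen was knocked out. The mean of Auto.Pos was lower for 9 of the 10 genes, and for 9531 of all 20467 genes. It was lower by 0.77 for Egr2 (SE 0.43), by 0.53 for Egr1 (SE 0.30) and by 0.50 for Junb (SE 0.54), and 0 of these passed the test. The differences of Egr3 (-0.05), Fos (-0.02) and Fosb (-0.01) were very small. The 95% intervals ran from -1.86 to 0.32 for Egr2 and from -1.29 to 0.23 for Egr1. limma's adjusted p was 1 for all 10 genes, with 0 called of the set and 3 of 20467 genes (0.0147%). At an unadjusted p under 0.05 it held 0 of the set and 213 genes (1.04%), with 0.128 as the lowest of the set. The samples of both groups did not overlap for Egr1 and Junb, 2 of 10, against 19.2% of all genes. For Junb this rested on the brighter probe, since on the other one Auto.Neg sample 1 (2.76) lay below Auto.Pos sample 1 (2.79).

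The direction of that comparison depended on single samples. Egr1, Egr2 and Junb were the 3 genes whose mean stayed lower in Auto.Pos in all 17 fits tried, while the other 7 changed sign in at least 1. Several fits could not turn a sign, since they repeat the main difference. These are the fits without the filter, with replicate number or software protocol as a block, and without a WT sample. The series table, a further fit, mixes samples of the groups. The size for Egr1, Egr2 and Junb rested on Auto.Pos sample 2. Without it the difference was -0.22 for Egr2, -0.25 for Egr1 and -0.11 for Junb. Within slide 2 the difference of Auto.Pos sample 1 and Auto.Neg sample 2 ran from -0.47 (Egr3) to 0.26 (Fos), with a median size of 0.22 (all genes 0.12), and was -0.46 for Egr2, -0.43 for Egr1 and -0.20 for Junb. Between the other samples of these groups, on different slides and days, it was -1.08 for Egr2, -0.62 for Egr1 and -0.80 for Junb. Each of these is a single difference with no test.

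Auto.Pos against WT sets the goblet cell receptor against wild type cells. Dusp1 (0.79, SE 0.40) and Fos (0.63, SE 0.35) had higher means in Auto.Pos, and Egr2 (-0.72, SE 0.43) and Ier2 (-0.65, SE 0.38) lower ones. These 4 genes were also those whose samples did not overlap, against 29.6% of all genes. limma called 0 of the set and 0 of 20467 genes (0%), with an adjusted p of 1 for all 10. At an unadjusted p under 0.05 there were 0 of the set and 1152 genes (5.63%), with Dusp1 lowest of the set at 0.107. The intervals were -0.24 to 1.82 for Dusp1, -0.26 to 1.52 for Fos and -1.81 to 0.36 for Egr2. The other Ier2 probe differed by -0.04.

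Within scan day 3, Auto.Pos sample 2 minus WT sample 2 was 0.87 for Dusp1, 1.02 for Fos, -1.43 for Egr2 and -0.40 for Ier2. Auto.Pos sample 1 minus WT sample 1, from different slides and days, gave 0.70, 0.25, -0.02 and -0.89. A fit with scan day as a random block, added after the data were seen, called Egr2 (-1.31, adjusted p = 0.0137 in limma), Fos (0.98, 0.0127) and Dusp1 (0.83, 0.0207), 3 of the 10, together with 4181 genes (20.4%). It also called 39 genes (0.191%) and 0 of the set for Auto.Pos against Auto.Neg, 459 (2.24%) and 0 for Auto.Neg against WT, and 2493 (12.2%) and 3 for any difference. That fit took as known a correlation of 0.918 within a day. The correlation was a consensus over all genes, each with 3 residual degrees of freedom from the same 8 samples. limma's adjusted p for the set in this comparison ran from 0.0127 to 1 over all alternatives.

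Auto.Neg against WT compares B cells that carry the Thy-1 receptor, in mice without Thy-1, with wild type cells. Junb (0.95, SE 0.54), Dusp1 (0.75, SE 0.40) and Fos (0.65, SE 0.35) had the highest differences, and Ier2 (-0.41, SE 0.38) the lowest. Junb and Dusp1 were the 2 of 10 genes whose samples did not overlap, against 25% of all genes. limma called 0 of the set and 0 of 20467 genes (0%), with an adjusted p of 1 throughout. At an unadjusted p under 0.05 there were 0 of the set and 941 genes (4.6%), and the lowest in the set was 0.119, for Fos. Junb's interval ran from -0.44 to 2.34. No slide or scan day held both groups, but each of the 2 software protocols named in the file headers held 1 sample of either. The samples of protocol 1 still differed in scanner and scan day, and those of protocol 2 in scan day. Within protocol 1, Auto.Neg sample 2 minus WT sample 1 was 0.32 for Junb, 0.77 for Dusp1 and -0.01 for Fos, and within protocol 2, Auto.Neg sample 1 minus WT sample 2 was 1.58, 0.73 and 1.32. Dusp1 thus differed alike in both pairs, whereas Fos differed in the pair of protocol 2 alone. Each of these is a single difference with no test. Single samples moved the sizes: Junb differed by 0.23 without WT sample 2, Dusp1 by 0.40 without WT sample 2 and 0.37 without Auto.Neg sample 2, and Fos by 0.37 without WT sample 2 and 0.28 without Auto.Neg sample 1.

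**Figure D4:**
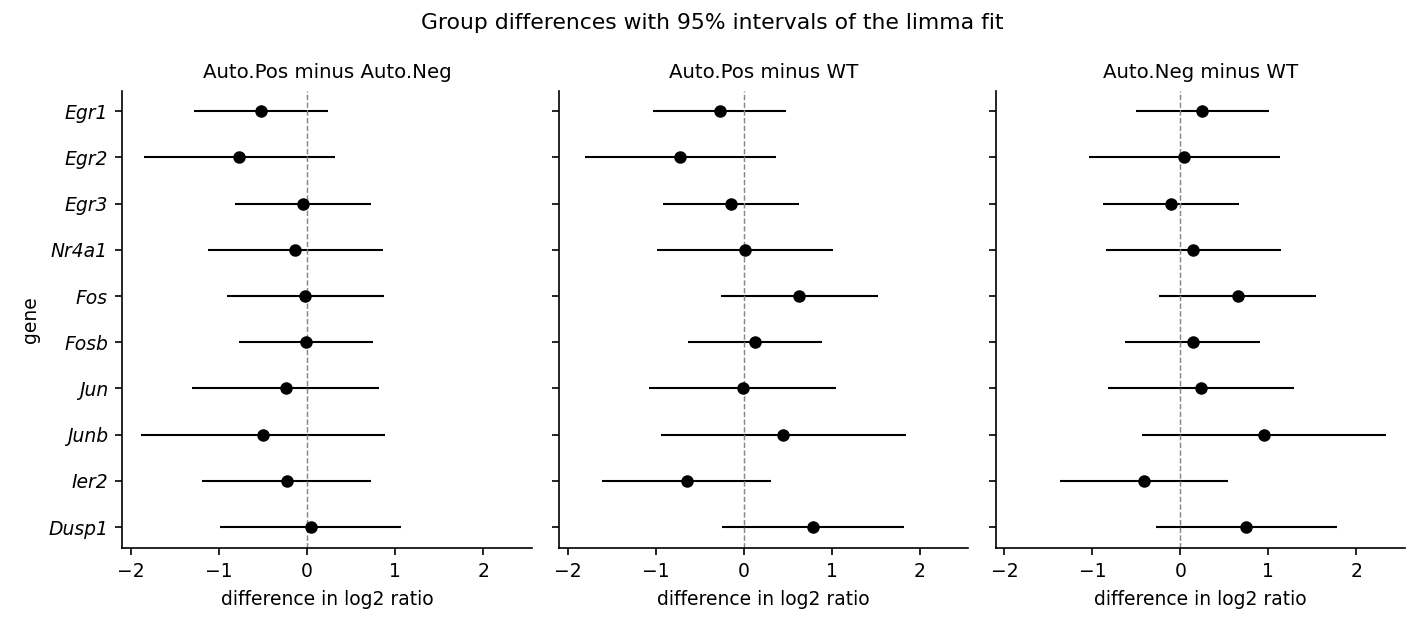
Differences between group means in log2 ratio (x axis) for the 10 genes (y axis), with 95% intervals of the limma fit over 8 samples as bars, for 3 comparisons. Every interval includes 0, and the widest is that of Junb.

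Edited and Non-edited cells, 1 sample each, allow a description with no replicate check. Egr2 read 4.31 in Edited and 2.77 in Non-edited, a 2.91-fold difference, and Egr3 read 5.03 and 3.35, a 3.21-fold difference. Both were at least 2-fold higher in Edited in each dye orientation, by 1.46 and 1.62 for Egr2 and by 1.87 and 1.49 for Egr3. With the scanner's own log ratio the lower orientation of Egr3 was 0.80, and Egr2 alone passed 2-fold in both. The dimmer Egr3 probe gave 0.06 for Non-edited and 0.11 for Edited, and the mean of both probes differed by 0.87, so the Egr3 difference rests on the probe whose reference channel was well above background on 5 of 16 arrays. That makes 2 of 10 genes, against 1.22% of 20348 genes at least 2-fold higher in both orientations, 0.172% lower (0 of the set) and 1.4% either way. Nr4a1 (0.79, or 1.73-fold) and Egr1 (0.76, or 1.69-fold) were also higher in both orientations, short of 2-fold.

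The AP-1 genes differed by less, with signs that for Fos, Jun and Junb depended on the normalization. Fosb stayed lower in Edited under every setting, by -0.40 to -0.12. Edited minus Non-edited was -0.07 for Fos, -0.32 for Fosb, -0.21 for Jun and -0.19 for Junb, and Junb differed in sign between the orientations (-0.40 and 0.01). Ier2 differed by -0.09 and Dusp1 by 0.29. The set's median difference was 0.11, against -0.03 over all genes. Under median centring Fos (0.07), Jun (0.05), Junb (0.06) and Ier2 (0.15) were higher in Edited, and the medians were 0.34 and 0.10.

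Set beside the 6 samples of the replicated groups, Non-edited was often outside the range. It lay below all 6 for Egr1, Egr2, Egr3, Nr4a1, Fos, Fosb and Jun, 7 of 10, against 14.7% of all genes (9.58% above all 6, with 0 of the set), whereas Edited lay inside their range for Egr1 and Egr2 and above all 6 for Egr3. For Nr4a1, Fos, Fosb and Jun Edited too lay below all 6, 4 of 10 against 18.5% of all genes, and 10.9% of all genes lay above all 6 there.

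Other genes moved with these samples. Of 9 tested heat shock genes, 8 were lower in Edited, with a median of -0.61, against 11283 of all 20467 genes and a median of -0.03. At least 2-fold lower in both orientations were 2 of the 9, against 0.172% of all genes. Hsph1, a chaperone, read 0.36 in Non-edited, -1.84 in Edited and -1.62 to -1.18 in the other samples, and Dnaja1, a co-chaperone, read 0.82 in Non-edited and -0.21 in Edited. Macrophage and monocyte markers, 6 of 7 of them tested, averaged 0.69 in Non-edited and 1.02 in Edited against 1.11 to 2.34 in the other samples. Neutrophil markers went the other way between the lone samples, at 2.49 in Non-edited and 1.73 in Edited, against 2.04 to 3.96 in the other samples. Erythroid and platelet markers, 5 of 6 tested, averaged 0.72 and 0.87 against 1.63 to 3.37 in the other samples. The part of handling, of other cells or of the 2 slides in the Egr2 and Egr3 difference was not tested. The lone samples shared scan day 4 and lay on different slides.

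**Figure D5:**
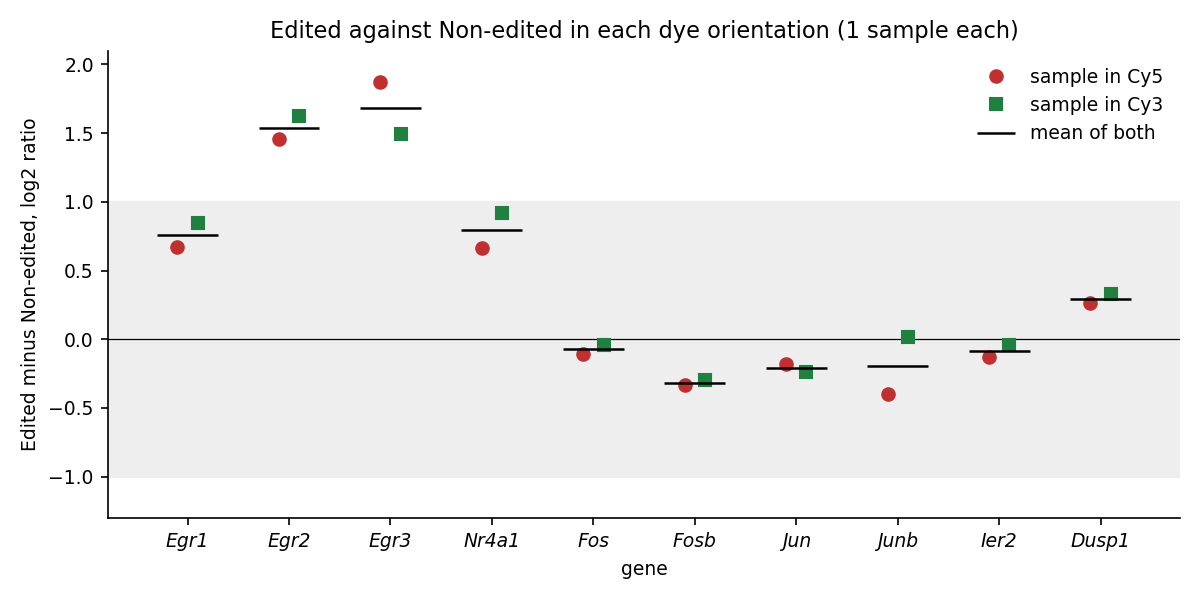
Edited minus Non-edited in log2 ratio (y axis) for the 10 genes (x axis), with the sample in Cy5 (red circles), the sample in Cy3 (green squares) and their mean (black lines). The grey band marks differences under 2-fold. Egr2 and Egr3 lie above it in both orientations, and Fos, Fosb, Jun, Junb and Ier2 lie near 0 or below.

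Over the set as a whole, each gene was centred on its mean over the 8 samples. Auto.Neg sample 2 was the highest of the 8 for 7 of the 10 genes (mean 0.43), and Auto.Pos sample 1, from the same slide, averaged 0.26. Non-edited was below the gene's own mean for all 10 (mean -0.69) and Edited for 8 (mean -0.27). WT sample 1 (0.15) and WT sample 2 (-0.03), and Auto.Neg sample 1 (0.23) and Auto.Pos sample 2 (-0.09), lay between. The genes whose values followed this profile most closely over the 8 samples were Gcnt2 (r = 0.984), Tmem53 (0.949), an unnamed transcript with the ID TC1481729 (0.937), LOC635992 (0.93) and 4930432K21Rik (0.929), out of 20451. These are descriptions over 8 samples that share slides, and the counts for the set were not made over all genes. Of all genes, 14.7% had Non-edited below all 6 samples of the replicated groups and 18.5% had Edited below them. Gcnt2 ranged only from -0.01 to 0.59 and LOC635992 from -0.40 to 0.20, and they were well above background on 10 and 6 arrays.

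Of 24 further immediate early genes 22 were tested, and limma called 0 in each of the 3 comparisons. At an unadjusted limma p under 0.05 there were 0, 1 and 1 genes, against 1.04%, 5.63% and 4.6% of all genes. Their median difference was 0.12 for Auto.Pos against Auto.Neg (all genes 0.02), 0.24 for Auto.Pos against WT (all genes 0.06) and 0.11 for Auto.Neg against WT (all genes 0.04). Jund, a further JUN protein, gave 2.35 and 3.01 for Auto.Neg, 3.32 and 2.23 for Auto.Pos, 2.35 and 1.26 for WT, 2.38 for Non-edited and 2.04 for Edited. As for Junb, WT sample 2 was the lowest. Nr4a2, a relative of Nr4a1, read -3.08 to -2.02 and Myc -3.92 to -2.86 over the samples, both below the cell line pool throughout. Nr4a3 and Ier3 did not pass the filter.

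Feedback inhibitors of activation signals gave 17 tested genes of 18 and 0 called. At an unadjusted limma p under 0.05 there were 3, 4 and 2 genes in the 3 comparisons, against 1.04%, 5.63% and 4.6% of all genes. Dusp6, a phosphatase of the kinase ERK, gave 0.47 and 0.56 for Auto.Neg, -0.47 and -0.84 for Auto.Pos, 0.34 and -0.01 for WT, 0.55 for Non-edited and 0.27 for Edited. Auto.Pos lay below all other samples, by 1.16 against Auto.Neg (SE 0.24) with an unadjusted limma p of 0.00419 and an adjusted p of 1. Dusp2, which follows antigen signals in lymphocytes, read 0.46 in Non-edited and 0.48 in Auto.Pos sample 2, its lowest values, and up to 1.27 in WT sample 1. Nab2, a corepressor of EGR proteins, was lowest in Non-edited (-0.28) and read 0.18 in Edited.

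Antigen response genes of B cells gave 12 tested of 15 and 0 called. Cd69, an early activation antigen, gave 2.72 and 2.92 for Auto.Neg, 2.54 and 2.29 for Auto.Pos, 2.36 and 1.88 for WT, 2.66 for Non-edited and 1.98 for Edited. It was thus lower in Edited than in Non-edited, opposite to Egr2 and Egr3. Cd83 read 4.06 in Auto.Neg sample 1 and 7.71 to 8.68 in the other 7 samples. Of 23 upstream kinases and SRF cofactors 22 were tested and 0 called. Srf, the factor that binds the CArG box, gave -0.74 and -0.45 for Auto.Neg, -0.16 and -0.46 for Auto.Pos and 0.45 and 0.44 for WT. It read -0.45 in Non-edited and -0.38 in Edited, so WT lay above all other samples. The unadjusted limma p was 0.00475 for Auto.Neg against WT (adjusted p 0.611) and 0.0173 for Auto.Pos against WT (adjusted p 0.696). All 10 anergy-linked genes were tested and 0 called. Of these, 4 were higher and 6 lower in Edited than in Non-edited, with a median difference of -0.06. Cblb, Dgka and Rnf128 differed by -0.44, -0.10 and 0.22. Nt5e (-2.74 in Non-edited, -1.12 in Edited) and Ndrg1 (-1.47 and 0.65) were at least 2-fold higher in Edited in both orientations. That makes 2 of 10, against 1.22% of all genes. Ndrg1 ran from -1.998 (Auto.Pos sample 2) to 1.77 (WT sample 2) in the replicated groups, a range that holds both lone values. Nt5e ran from -3.04 to -2.35 there, with Edited above that range. Nt5e, Ndrg1 and the heat shock genes above were named after their values were seen.

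Markers of other cells varied between samples of 1 group as well. Neutrophil markers, 6 of 7 tested and 3 well above background on all arrays, averaged 3.96 and 2.04 in the Auto.Neg samples, 3.07 and 2.27 for Auto.Pos, and 2.69 and 3.32 for WT. Fos, which myeloid cells also express, differed in the same direction between the Auto.Neg samples and in the opposite direction between the Auto.Pos and the WT samples. Macrophage and monocyte markers averaged 1.11 and 2.14 for Auto.Neg, 2.19 and 1.48 for Auto.Pos and 2.34 and 2.24 for WT. Egr1, Egr2, Nr4a1, Fosb, Jun, Junb and Dusp1 were likewise higher in Auto.Neg sample 2 than in sample 1 and in Auto.Pos sample 1 than in sample 2. Auto.Neg sample 2 and Auto.Pos sample 1 lay on slide 2, and how many of all genes did the same was not counted. Over 20461 genes the sample differences of Auto.Neg and of Auto.Pos tended to run in opposite directions (correlation -0.788). Between the WT samples, with similar macrophage markers, Jun read -0.90 and -0.06 and Junb 2.58 and 1.14. The summed level of the macrophage list in the sample channel ran from 13.5 to 14.5 (log2) in Auto.Neg, 14.6 to 15.5 in Auto.Pos and 15.5 to 16.6 in WT. The part of such cells in the spread of the immediate early genes was not tested.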

How the data were processed

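Spot and local background intensity of both channels were deposited per array in scanner files of Agilent Feature Extraction 9.1.1.1, 9.1.3.1 and 9.5.1.1, per the file headers. Each array's log10 ratio (red to green) was detrended, background-subtracted and dye-normalized by the scanner software, per the file headers. A deposited table of the series gives a log2 ratio per array, for which the submitters' processing notes name limma, with direction and centring unstated. Of its 16 columns 10 matched another array than the labelled one best, so it served as an alternative only. Both columns labelled Auto.Pos sample 1 matched WT sample 1 best, and both labelled WT sample 2 matched Auto.Neg sample 1. Its labelled groups thus mix samples, and its group differences are not another processing of the same groups. Probe positions are those of the files (mm7, per the headers that name a build).

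Intensities were corrected with normexp (offset 50) and loess in limma 3.58.1 (R 4.3.3), without outlier spots. All ratios were given the direction sample to reference, and the spots of a probe and the arrays of a sample averaged. Probes well above background on both arrays of at least 2 samples were kept (29637 of 41174), and each gene was read by its brightest probe. Probes were named by accession (22951), the file (8455), symbol (6659) or synonym (3109). limma was fitted to 8 samples with 1 mean per group (3 residual and 2.11 prior degrees of freedom), and p-values were adjusted by Benjamini and Hochberg over 20467 genes at 0.05. The fit was tested on simulated data. Same-numbered samples of the groups did not deviate together (correlations -0.788, -0.279 and 0.252), so the numbers were not used as pairs. Named genes were all probes of the 10 members, preset genes of the pathway lists and the 5 genes most correlated with the members' mean profile. The members and lists were chosen with earlier results of these data known. The 2-fold rule was used for the lone samples.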

Additional observations from a re-analysis of the deposited data

How the results depend on the processing

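The group differences were recomputed under 10 other settings and without each replicate in turn, and the Edited differences and the counts of spread under the 7 of these that change the values themselves. Lending the lone samples the spread of the replicated groups gave an adjusted limma p of 1 for all 10 genes. Except under scan day as a random block, 0 members were called for any comparison. Under that block, chosen after seeing the data, 3 were called for Auto.Pos against WT and 3 for any difference, with 39, 4181, 459 and 2493 genes called for Auto.Pos against Auto.Neg, Auto.Pos against WT, Auto.Neg against WT and any difference. The 3 genes called for Auto.Pos against Auto.Neg became 1 under median centring and 6 with the software protocol as a block. They became 0 under scale normalization, no filter, the replicate block and the series table. For Auto.Pos against WT the scanner's log ratio gave 15 genes and scale normalization 6, and for any difference the scanner's log ratio gave 3 and the mean of all probes 4. The members at least 2-fold apart between Edited and Non-edited numbered 1 with the scanner's log ratio and 1 with the mean of all probes, where Egr3 differed by 0.87. The cause was not tested.

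The replicate block called 0 members (130, 752 and 610 genes at an unadjusted p under 0.05, against 213, 1152 and 941), and the numbers do not pair the samples. The planned software protocol block called 6 genes, and a crossed pairing of the numbers, considered after seeing the data, is the same fit. Slide as a random block was not run, since its correlation could not be estimated. Median centring moved the median of all genes to -0.07 for Auto.Pos against Auto.Neg and -0.06 for Auto.Pos against WT. The series table, with its mixed groups, gave -0.16 for the first and 0.18 for Auto.Neg against WT.

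Signs of group differences turned as follows, all for differences that passed no test as reported. Those of the series table compare columns that partly match arrays of other groups. For Auto.Pos against Auto.Neg, the series table gave Dusp1 -0.70, Fos 0.0190, Egr3 0.14 and Ier2 0.72, median centring Dusp1 -0.0872, scale normalization Dusp1 -0.0013, and the scan day block Dusp1 -0.0263 and Fos 0.24. For Auto.Pos against WT, the series table gave Fosb -0.0788 and Nr4a1 -0.14, the mean of probes Egr3 0.0037, median centring Nr4a1 -0.16 and Fosb -0.16, scale normalization Nr4a1 -0.21, the scan day block Fosb -0.11, Nr4a1 -0.35 and Egr3 0.0606, and the scanner's log ratio Nr4a1 -0.0472, Fosb -0.0569 and Egr3 0.88. For Auto.Neg against WT, the mean of probes gave Egr3 0.0373, no background correction Egr3 0.11, median centring Fosb -0.0094 and Egr2 -0.0347, scale normalization Nr4a1 -0.0129 and Egr2 -0.56, the scan day block Fosb -0.0611, Nr4a1 -0.27, Jun -0.33, Egr2 -0.76 and Egr3 0.46, and the scanner's log ratio Fosb -0.0393 and Egr3 0.98.

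Without single replicates, Auto.Pos against Auto.Neg ran from -1.32 to -0.22 for Egr2, -0.80 to -0.25 for Egr1, -0.89 to -0.11 for Junb, -0.43 to 0.33 for Egr3, -0.56 to 0.30 for Nr4a1, -0.40 to 0.36 for Fos, -0.30 to 0.28 for Fosb, -0.55 to 0.0613 for Jun, -0.71 to 0.24 for Ier2 and -0.34 to 0.41 for Dusp1. Auto.Pos against WT ran from -0.53 to 0.23 for Egr3, -0.41 to 0.45 for Nr4a1, -0.13 to 0.39 for Fosb, -0.43 to 0.41 for Jun and -0.27 to 1.17 for Junb. Auto.Neg against WT ran from -0.19 to 0.29 for Egr2, -0.21 to 0.0030 for Egr3, -0.21 to 0.51 for Nr4a1, -0.15 to 0.43 for Fosb, -0.19 to 0.65 for Jun and -0.89 to 0.0601 for Ier2. Where an arm was left with 1 sample, it was assumed to vary like the other groups. Signal over background limits Egr3, whose reference channel was well above background on 5 of 16 arrays.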
